A study of Mus musculus with 12 samples.

Results

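Aminoacyl-tRNA synthetases are the enzymes that join each amino acid to its transfer RNA, the step that supplies the ribosome with building blocks. The genes described here are 36 synthetase genes of the mouse, of 45706 genes counted in the series: 20 that encode the cytosolic enzymes and 16 with the suffix 2 that encode the enzymes of mitochondria. All 36 passed the filter on low counts and were among the 17003 genes tested. The genes themselves were picked by name, but the family was chosen by the measured fold changes of related stress response genes between these same groups of libraries, so the calls below describe the family and are no independent evidence of a direction. By the fold of their catalytic domain 19 members were counted as class I and 17 as class II enzymes. *Eprs*, a fused enzyme for glutamate and proline, was counted once, as class I.

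The cytosolic and the mitochondrial enzymes are all encoded in the nucleus, and those of the mitochondria are imported to serve the few proteins made from mitochondrial DNA. Glycine and lysine have no separate mitochondrial gene, since *Gars* and *Kars* yield forms for both compartments, and mitochondria charge glutamine by a detour that uses the glutamate enzyme. Many cytosolic synthetase genes are known targets of ATF4, a transcription factor whose translation rises when amino acids run short or the endoplasmic reticulum is stressed, whereas the mitochondrial genes are not known as a group of ATF4 targets. From that general knowledge the 20 cytosolic genes were divided into 12 known as ATF4-responsive (*Aars*, *Cars*, *Eprs*, *Gars*, *Iars*, *Lars*, *Mars1*, *Nars*, *Sars*, *Tars*, *Wars* and *Yars*) and 8 others (*Dars*, *Farsa*, *Farsb*, *Hars*, *Kars*, *Qars*, *Rars* and *Vars*). The division was made with earlier results of these data known, so a contrast between these lists is no independent evidence.

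The study asked how far neural progenitors regain features of earlier neural stem cells when the silent gene *Sox1* is switched on by an activator targeted to its promoter. All 4 groups were C57BL/6 mouse cells that descend from *Sox1*GFP embryonic stem cells, which report *Sox1* by green fluorescence, with 3 libraries described as biological replicates for each group and 12 in all. NPC are Sox1 negative glial progenitors, labelled Baseline and not sorted. NPC(+) are Sox1 positive glial progenitors, labelled as sorted, in which dCas9-VP64, a nuclease-dead Cas9 joined to an activator domain, had turned on the *Sox1* reporter. NSC are unsorted neuroepithelial cells called neural stem cells, and NR are GFP sorted neuroepithelial cells called neural rosettes. The dCas9-VP64 lines were grown from single cells and kept under blasticidin, and NPC were expanded with bFGF, EGF and laminin. For guide RNA expression the study selected cells with puromycin, and which libraries were so treated is not stated. Which clonal line gave which library, and whether the NPC libraries carried guide RNAs, is not stated, so the p-values measure only the spread between these libraries. The study's text speaks of sorting for NPC with and without induction, while the labels give sorting for NPC(+) alone. By the labels, sorting and *Sox1* induction go together between NPC and NPC(+) and cannot be told apart. Guide RNA delivery and puromycin may also differ between these groups, and their part was not tested.

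*Sox1* itself had 4.83, 6.00 and 5.43 CPM in NPC, 20.3, 20.9 and 21.7 in NPC(+), 48.6, 64.9 and 51.8 for NSC and 4.62, 20 and 19.2 for NR, where CPM is the usual scaling of counts to a common library total, here adjusted by TMM. All NPC(+) libraries were above all NPC libraries, but the sorted NR libraries lay below NSC and NR replicate 1 lay below every NPC library, so NSC and NR are used below only as names of the labels. Total counts were 4939268 to 18351483 in NPC, 3407066 to 6315574 in NPC(+), 29046205 to 43095688 for NSC and 16707006 to 34594885 for NR. The lowest count of any member was 14, of *Pars2* in NPC(+) replicate 1. The summed level of 8 markers of glial progenitors and astrocytes was 3171 to 3451 CPM in NPC, 1496 to 1571 in NPC(+), 90.7 to 105 for NSC and 69.3 to 82.6 for NR. The 7 markers of pluripotent cells summed to 34.7 to 45.5 CPM in NPC, 13.6 to 15.3 in NPC(+), 54.8 to 157 for NSC and 1427 to 2741 for NR, and the 6 mesenchymal and mesodermal markers to 35.3 to 41.7, 41.7 to 53.0, 1919 to 2809 and 2217 to 6108 in the same order. The 7 markers of neural stem and progenitor cells summed to 1887 to 1995, 1570 to 1637, 2212 to 2449 and 769 to 1312 CPM, and none of the markers in these 4 lists was at 0 in any group. These are mixtures measured in bulk, in which fewer cells of a type and less RNA per cell cannot be told apart, and the part of cell composition in the results was not tested. Within NR the library of replicate 1 was the highest of the 3 for 19 of 20 cytosolic members and 11 of 16 mitochondrial members. Within NSC replicate 2 was the highest for 17 and 12 of them, and within NPC replicate 1 for 14 and 11. Calls of members in NR that were lost or gained without NR replicate 1 are named below. Levels in NR and counts of the smaller lists and of pairs include that library.

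The start regions of the genes were read for the letters TGATGNAA, or TTNCATCA on the opposite strand, the core of the element that ATF4 binds together with C/EBP proteins, and no other motif was searched. The RefSeq promoter table of GRCm38.p6, with 250 bases before and 50 after each start, held 13 of the 20 cytosolic and 14 of the 16 mitochondrial genes. *Cars*, *Hars*, *Lars*, *Nars*, *Rars*, *Vars*, *Wars*, *Hars2* and *Pars2* were not matched. The letters were found at 5 of the 8 ATF4-responsive cytosolic genes with a promoter, at 0 of the 5 other cytosolic genes and at 0 of the 14 mitochondrial genes. They were found in 3.97% of all 32851 promoters of the same length, and at 4.51% of the 27025 genes with a promoter. They were also found at 8 of 26 genes of a stress response list that is described further on. The sites are shown because these letters are the sequence by which ATF4 targets are recognised, and the expression values did not choose them. They are printed 5′ to 3′ on the strand of the gene with the matching letters in capitals, and *Asns*, a classic ATF4 target, is given for comparison.
Aars (chr8:111033840-111033869, + strand): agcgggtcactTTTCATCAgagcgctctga
Gars (chr6:55037960-55037989, + strand): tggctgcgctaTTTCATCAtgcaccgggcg
Iars (chr13:49682126-49682155, + strand): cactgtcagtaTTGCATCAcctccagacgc
Tars (chr15:11399655-11399684, - strand): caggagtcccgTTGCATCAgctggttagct
Yars (chr4:129189895-129189924, + strand): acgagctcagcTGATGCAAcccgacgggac
Asns (chr6:7693214-7693243, - strand): tcccagccacaTGATGAAActtcccgcacg
The first letter of the match shown lay 9 bases after the start in *Aars*, 30 before in *Gars*, 7 after in *Iars*, 15 before in *Tars* and 3 after in *Yars*. A match is a description of the sequence and not a bound site, and a gene without one only lacks these letters in this window.

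Counted per length, the cytosolic genes were the more abundant in every group. The median cytosolic member had 118 CPM per kilobase of exon in NPC, 61.8 in NPC(+), 56.5 for NSC and 73.0 for NR. The median of the 15 mitochondrial members without *Lars2*, a gene treated apart because of its extreme level, was 7.07, 6.01, 5.23 and 6.29 in the same order. The cytosolic level per length ran from 7.62 (*Qars*, the glutamine enzyme) to 298 (*Sars*, the serine enzyme) in NPC, and the mitochondrial level without *Lars2* from 1.36 (*Wars2*) to 31.6 (*Rars2*). The 20 cytosolic genes together took 1.21 to 1.26% of all counts of an NPC library, 0.662 to 0.679% in NPC(+), 0.578 to 0.614% for NSC and 0.703 to 0.816% for NR. The 15 mitochondrial genes took 0.0647 to 0.0687%, 0.0684 to 0.0708%, 0.0570 to 0.0611% and 0.0634 to 0.0662%. The cytosolic share was therefore higher in each NPC library than in any of the 9 others, while the mitochondrial share of NPC overlapped those of NPC(+) and NR.

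The same contrast held for mean levels on the log2 scale, which give every gene equal weight. The mean cytosolic level minus the mean mitochondrial level without *Lars2*, both per length, was 3.82 to 3.90 in NPC, 3.11 to 3.21 in NPC(+), 3.15 to 3.18 for NSC and 3.34 to 3.49 for NR. Within the cytosolic genes the 12 known as ATF4-responsive had a mean log2 level of 7.11 to 7.23 in NPC, 5.98 to 6.03 in NPC(+), 5.69 to 5.79 for NSC and 5.98 to 6.31 for NR. The 8 others lay between 5.48 and 5.92 in every library.

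**Figure D1:**
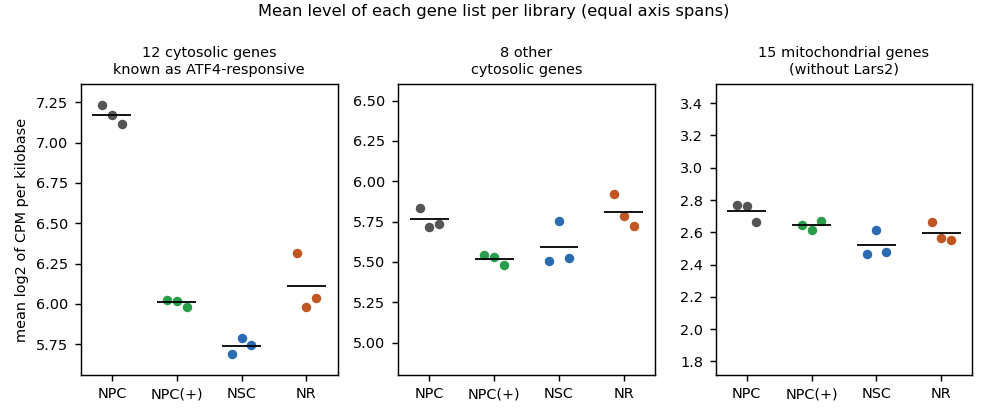
Mean log2 level per length (CPM per kilobase of exon) of 12 ATF4-responsive cytosolic genes, 8 other cytosolic genes and 15 mitochondrial genes without *Lars2* in each library, with points for libraries, lines for the mean of 3 and the same span on all 3 axes. The ATF4-responsive genes stand at 7.11 to 7.23 in NPC and at 5.69 to 6.31 in the other 9 libraries, while the NPC points of the other panels overlap those of other groups.

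Cytosolic synthetase genes were mostly lower in NPC(+) than in NPC. Of the 20 genes 16 were called lower and 2 higher at an adjusted p under 0.1 in edgeR's quasi-likelihood test, where 22.7% and 21.6% of all genes tested were called lower and higher. Their median log2 fold change was -0.73, beside 0 over all genes, of which 44.3% were called in either direction. The 3 libraries of NPC(+) lay entirely below those of NPC for 17 cytosolic genes and entirely above for 2, as they did for 27.1% and 25.7% of all genes.

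*Wars* (ENSMUSG00000021266, chr12:108860030-108894174, - strand), which charges tryptophan, had 582, 602 and 590.4 CPM in NPC, 98.4, 103 and 99.4 in NPC(+), 218, 251 and 211 for NSC and 184, 199 and 183 for NR. Gene positions here and below are those of GENCODE on GRCm38. Its NPC(+) level was the lowest of the groups, 5.89-fold below NPC (log2 fold change -2.56, SE 0.084, edgeR adjusted p 3.25e-10), and no library of any group fell into the range of another group. *Yars* (ENSMUSG00000028811, chr4:129189760-129219607, + strand), the tyrosine enzyme, had 732, 734 and 696 CPM in NPC, 231, 214 and 210.3 in NPC(+), 171, 174 and 173 for NSC and 210.0, 172 and 176 for NR. All 9 other libraries were under the NPC range, and the fall in NPC(+) was 3.30-fold (log2 fold change -1.72, SE 0.086, edgeR adjusted p 7.02e-09). *Eprs* (ENSMUSG00000026615, chr1:185363044-185428360, + strand), a fused enzyme that charges both glutamate and proline, had 2176, 2002 and 1848 CPM in NPC, 759, 791 and 764 in NPC(+), 562, 629 and 622 for NSC and 908, 718 and 745 for NR, and its fall in NPC(+) was 2.60-fold (log2 fold change -1.38, SE 0.10, edgeR adjusted p 2.28e-07). Neither NPC(+), NSC nor NR reached the NPC range for *Eprs*.

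The other ATF4-responsive genes fell in NPC(+) as well, so that 12 of 12 were called lower, with a median log2 fold change of -1.06. Among them *Nars*, for asparagine, changed by -1.35 on the log2 scale, *Sars* by -1.11, *Aars*, for alanine, by -1.07 and *Lars*, for leucine, by -1.06. The smallest falls of the 12 were those of *Gars* (-0.64) and *Mars1* (-0.64), the enzymes for glycine and methionine. Of the 8 others 4 were called lower and 2 higher, with a median of -0.31. The arginine enzyme *Rars* fell by 1.16 on the log2 scale, and *Dars*, *Farsb* and *Kars* by 0.61, 0.54 and 0.52.

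The genes called higher were *Farsa* and *Qars*. *Farsa* (ENSMUSG00000003808, chr8:84856989-84869257, + strand) encodes the alpha subunit of the phenylalanine enzyme and had 98.7, 91.7 and 97.9 CPM in NPC, 112, 119.7 and 110.2 in NPC(+), 158, 186 and 163 for NSC and 179, 176 and 161 for NR. Its rise in NPC(+) was small (log2 fold change 0.25, SE 0.084, edgeR adjusted p 0.0332) beside log2 fold changes of 0.82 for NSC and 0.84 for NR, whereas *Farsb*, the beta subunit of the same enzyme, was lower in all 3 comparisons with log2 fold changes of -0.54 in NPC(+), -1.14 for NSC and -0.59 for NR. *Qars* (ENSMUSG00000032604, chr9:108507706-108515941, + strand) had 51.4, 49.8 and 49.0 CPM in NPC, 82.5, 73.3 and 71.2 in NPC(+), 69.8, 78.3 and 68.2 for NSC and 76.0, 74.5 and 68.9 for NR, with NPC the lowest group in every library (log2 fold change 0.59, SE 0.091, edgeR adjusted p 1.68e-04 for NPC(+)). *Hars*, for histidine, and *Vars*, for valine, were not called, at log2 fold changes of 0.11 and -0.11. The call of *Farsa* in NPC(+) was kept in 11 of 14 alternative fits, and that of *Qars* in all 14.

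**Figure D2:**
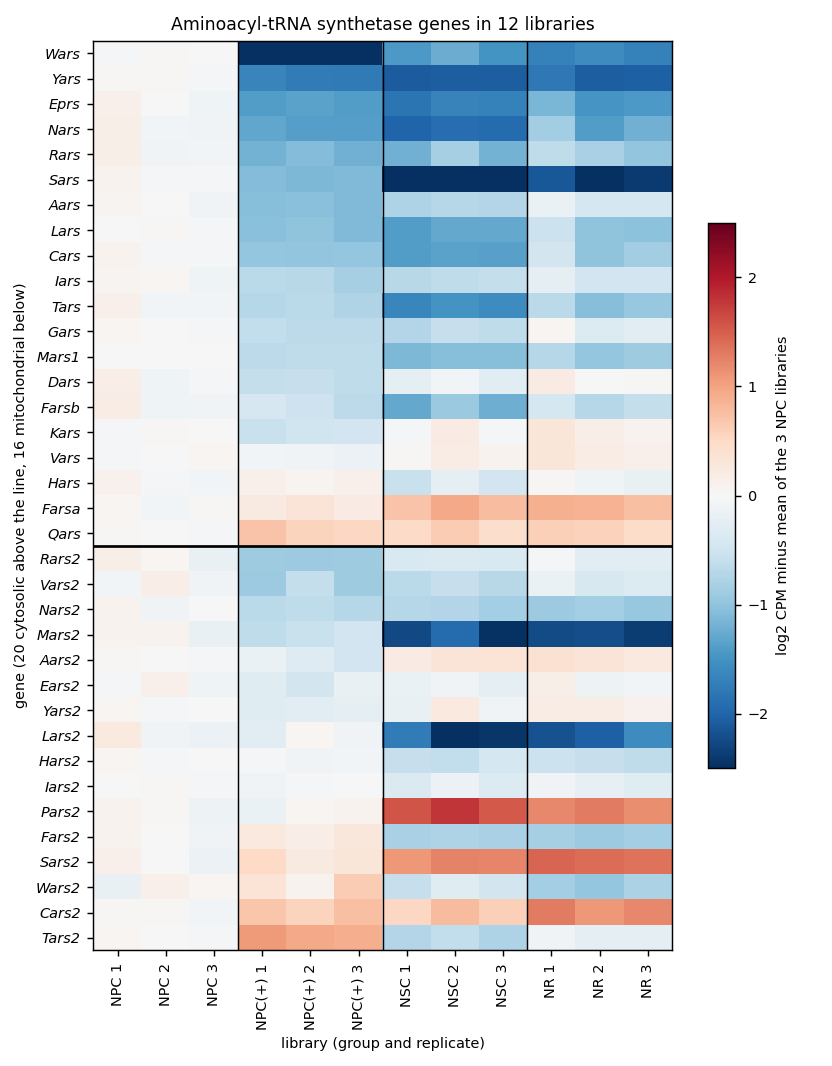
Log2 CPM of 36 synthetase genes (rows) in 12 libraries (columns), each minus the mean of the 3 NPC libraries, with blue for lower and red for higher and colours that end at the limits of the bar. The cytosolic rows above the line are mostly blue outside NPC, led by *Wars* in NPC(+) and *Sars* in NSC and NR, while the mitochondrial rows below it hold both colours.

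Mitochondrial synthetase genes were called in both directions in NPC(+). Of the 16 genes 7 were called lower and 3 higher, beside 22.7% and 21.6% of all genes, and the median log2 fold change was -0.083, or -0.06 without *Lars2*. The libraries did not overlap in 7 genes that were lower and 4 that were higher, beside 27.1% and 25.7% of all genes. The number that were higher was thus near the share of all genes. The genes called lower were *Rars2*, *Vars2*, *Nars2*, *Mars2*, *Aars2*, *Ears2* and *Yars2*, from -0.91 to -0.26 on the log2 scale, and those called higher were *Tars2*, *Cars2* and *Sars2*. The calls of *Ears2* and *Yars2* were kept in only 6 and 3 of the 14 alternative fits, and that of *Sars2* in 10.

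*Tars2* (ENSMUSG00000028107, chr3:95739976-95760206, - strand), the mitochondrial threonine enzyme, had 91.8, 88.9 and 85.8 CPM in NPC, 185, 170.2 and 166 in NPC(+), 53.1, 57.8 and 52.3 for NSC and 83.7, 74.5 and 75.4 for NR. No library fell into the range of another group, with NPC(+) the highest and NSC the lowest, and the rise in NPC(+) was 1.95-fold (log2 fold change 0.97, SE 0.081, edgeR adjusted p 7.99e-07). *Tars2* was not alone in its stretch of chromosome 3: the 62 other genes with a mean log2 CPM above 3 within 5 Mb on each side had a median log2 fold change of 0.99 in NPC(+), and 55 of them were above 0. The median over all such genes of the chromosome was 0.031. The rise of *Tars2* was thus no larger than that of its neighbourhood, and whether both have a common source was not tested.

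The neighbourhoods of other members were examined in the same way, and around 5 of 35 genes without *Lars2* the median of the neighbours in NPC(+) lay more than 0.3 log2 units from that of all expressed genes. These were *Tars2*, *Wars2*, *Yars2*, *Sars* and *Tars*. *Wars2*, for tryptophan, lies on the same chromosome and had a log2 fold change of 0.38 that was not called (edgeR adjusted p 0.155), beside 0.81 for its neighbours. *Yars2* on chromosome 16 had -0.26 beside -0.37. For *Sars* and *Tars* the neighbours were higher, at 0.26 and 0.34, while the genes themselves fell. Relative to their neighbours 17 of 20 cytosolic genes were lower, with a median difference of -0.93, and 10 of 15 mitochondrial genes, with a median difference of -0.14. The same median differences were -0.92 and -0.27 for NSC and -0.47 and -0.03 for NR, where more of the neighbourhoods were shifted (9 of 35 in NSC and 10 of 35 in NR). On chromosome 1, which holds *Eprs* and *Farsb* among others, the median over all expressed genes was -0.33 for NSC and -0.39 for NR. On chromosome 15, which holds *Tars*, it was -0.72 and -0.78. *Tars* had -1.57 and -0.89 beside -0.19 and -0.049 for its neighbours. On chromosome 8 the median was 0.54 for NSC and 0.39 for NR. *Farsa* there had 0.82 and 0.84 beside 0.47 and 0.60 for its neighbours, and *Cars2* 0.63 and 1.20 beside 0.49 and 0.17. *Aars* had -0.74 and -0.34 beside 0.54 and 0.40, and *Kars* 0.052 and 0.18 beside 0.54 and 0.47. In other shifted neighbourhoods *Eprs* had -1.73 and -1.35 beside -0.54 and -0.43, and *Lars* -1.32 and -0.84 beside -0.41 and -0.69. *Iars2* had -0.28 and -0.20 beside -0.54 and -0.43. The neighbourhoods of *Wars* (-1.38 beside 0.40) and *Aars2* (0.29 beside -0.37) were shifted in NSC alone. Those of *Hars* (-0.09 beside -0.46), *Iars* (-0.39 beside -0.56), *Hars2* (-0.59 beside -0.46) and *Mars2* (-2.28 beside -0.44) were shifted in NR alone. *Iars* in NR and *Iars2* in both groups thus fell no more than their neighbours. Whether the values of members and neighbours have a common source was not tested.

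*Rars2* (ENSMUSG00000028292, chr4:34614957-34660167, + strand), for arginine, had 95.9, 90.5 and 76.2 CPM in NPC, 47.2, 46.5 and 47.0 in NPC(+), 66.6, 67.4 and 67.2 for NSC and 84.8, 71.5 and 72.3 for NR. NPC(+) was lowest and apart from all other libraries (log2 fold change -0.91, SE 0.10, edgeR adjusted p 1.11e-05), and its 18 expressed neighbours had a median of -0.33. *Nars2* (ENSMUSG00000018995, chr7:96951505-97064758, + strand), for asparagine, had 37.4, 33.2 and 35.7 CPM in NPC, 22.3, 22.8 and 21.5 in NPC(+), 21.5, 21.3 and 19.6 for NSC and 18.8, 19.6 and 18.3 for NR. All 9 other libraries lay below NPC (log2 fold change -0.68, SE 0.11, edgeR adjusted p 1.95e-04 for NPC(+)), so that both arginine genes and both asparagine genes were lower in NPC(+).

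Against NSC the NPC libraries again held more of most cytosolic synthetase transcripts. In NSC 16 of 20 cytosolic genes were called lower and 2 higher than in NPC, beside 33.7% and 44.4% of all genes, with a median log2 fold change of -1.08 beside 0.20 over all genes, of which 78.1% were called in either direction. The libraries lay entirely apart for 15 lower and 2 higher cytosolic genes, beside 33.5% and 43.8% of all genes. This comparison used the same NPC libraries as the one with NPC(+), so the 3 sets of values against NPC share their reference.

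*Sars* (ENSMUSG00000068739, chr3:108424865-108445209, - strand) had 1622, 1506 and 1471 CPM in NPC, 719, 700.5 and 709 in NPC(+), 229.8, 244 and 228 for NSC and 355, 273 and 292 for NR. The groups did not overlap, and with a 6.56-fold fall in NSC (log2 fold change -2.71, SE 0.10, edgeR adjusted p 4.17e-11) and a 5.0-fold fall in NR it had the largest difference of the cytosolic members in both. The falls of *Yars* in NSC (log2 fold change -2.06, SE 0.086, edgeR adjusted p 1.41e-10) and of *Wars* (log2 fold change -1.38, SE 0.079, edgeR adjusted p 2.57e-09) had the next smallest p. The NSC and NR libraries lay above those of NPC(+) for *Wars* and below them for *Sars*. Among the ATF4-responsive genes 12 of 12 were called lower in NSC, with a median of -1.38, and among the 8 others 4 were lower (*Dars*, *Farsb*, *Hars* and *Rars*) and 2 higher (*Farsa* and *Qars*), with a median of -0.073. The call of *Dars* rested on a log2 fold change of -0.20 (edgeR adjusted p 0.0619) and was lost in 7 of 14 alternative fits, among them DESeq2 and those without NPC replicate 1, NSC replicate 1 or NSC replicate 3.

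Of the 16 mitochondrial genes 10 were called lower and 4 higher in NSC, beside 33.7% and 44.4% of all genes, with a median log2 fold change of -0.41. *Mars2* (ENSMUSG00000046994, chr1:55237177-55248470, + strand), for methionine, had 57.6, 57.1 and 47.6 CPM in NPC, 34.7, 36.6 and 38.7 in NPC(+), 11.3, 14.3 and 9.78 for NSC and 11.5, 11.6 and 10.4 for NR. It was highest in NPC and fell 4.61-fold in NSC (log2 fold change -2.20, SE 0.14, edgeR adjusted p 7.45e-09) and 4.86-fold in NR. *Sars2* (ENSMUSG00000070699, chr7:28741992-28753871, + strand) went the other way from its cytosolic counterpart, with 25.7, 23.6 and 21.1 CPM in NPC, 33.0, 27.5 and 28.9 in NPC(+), 49.5, 55.4 and 54.1 for NSC and 63.7, 61.1 and 60.2 for NR. Its groups did not overlap, and it rose 2.24-fold in NSC (log2 fold change 1.16, SE 0.10, edgeR adjusted p 1.91e-07). *Pars2* (ENSMUSG00000043572, chr4:106651069-106655282, + strand), for proline, had 4.83, 4.60 and 4.17 CPM in NPC, 4.05, 4.71 and 4.84 in NPC(+), 13.5, 15.6 and 13.1 for NSC and 10.4, 11.2 and 10.1 for NR, so that NSC and NR stood apart from NPC and NPC(+) by a rise of 3.07-fold in NSC (log2 fold change 1.62, SE 0.16, edgeR adjusted p 4.89e-07).

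In NR most cytosolic genes were lower than in NPC as well. There 13 of 20 cytosolic genes were called lower and 4 higher, beside 34.1% and 45.6% of all genes, and the median log2 fold change was -0.67 beside 0.19 over all genes, of which 79.8% were called in either direction. The libraries lay apart for 13 lower and 4 higher genes, beside 33.4% and 44.4% of all genes. The 3 smallest p values again belonged to *Sars* (log2 fold change -2.32, SE 0.10, edgeR adjusted p 1.39e-10), *Yars* (log2 fold change -1.96, SE 0.085, edgeR adjusted p 2.07e-10) and *Wars* (log2 fold change -1.65, SE 0.079, edgeR adjusted p 5.21e-10). The genes called higher were *Farsa*, *Qars*, *Vars* and *Kars*, and without NR replicate 1 or without NPC replicate 2 only *Farsa* and *Qars* were called higher. *Gars* was not called in NR (edgeR adjusted p 0.107), where replicate 1 lay above the NPC range, and it was called lower when NR replicate 1 or NPC replicate 2 was left out.

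The mitochondrial genes in NR gave 10 calls lower and 4 higher, beside 34.1% and 45.6% of all genes, with a median log2 fold change of -0.20. *Mars2* and *Sars2* led here too (log2 fold change -2.28, SE 0.14, edgeR adjusted p 5.51e-09 and log2 fold change 1.38, SE 0.10, edgeR adjusted p 3.33e-08). *Cars2* (ENSMUSG00000056228, chr8:11513977-11550783, - strand), for cysteine, had 14, 14.1 and 13.1 CPM in NPC, 22.3, 20.1 and 23.0 in NPC(+), 19.6, 23.8 and 20.8 for NSC and 34.0, 29.3 and 31.8 for NR, with NPC the lowest and NR the highest group and no overlap of either with the rest (log2 fold change 1.20, SE 0.12, edgeR adjusted p 6.34e-07). *Fars2*, *Wars2*, *Nars2* and *Hars2* were lower by 0.87, 0.86, 0.91 and 0.59 on the log2 scale. The calls of *Rars2*, *Iars2* and *Tars2*, between -0.21 and -0.19, were lost in DESeq2. The sums of pluripotent, mesenchymal, endodermal, endothelial and glial markers given above differ between NPC and the NSC and NR libraries, and their part in these values was not tested.

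**Figure D3:**
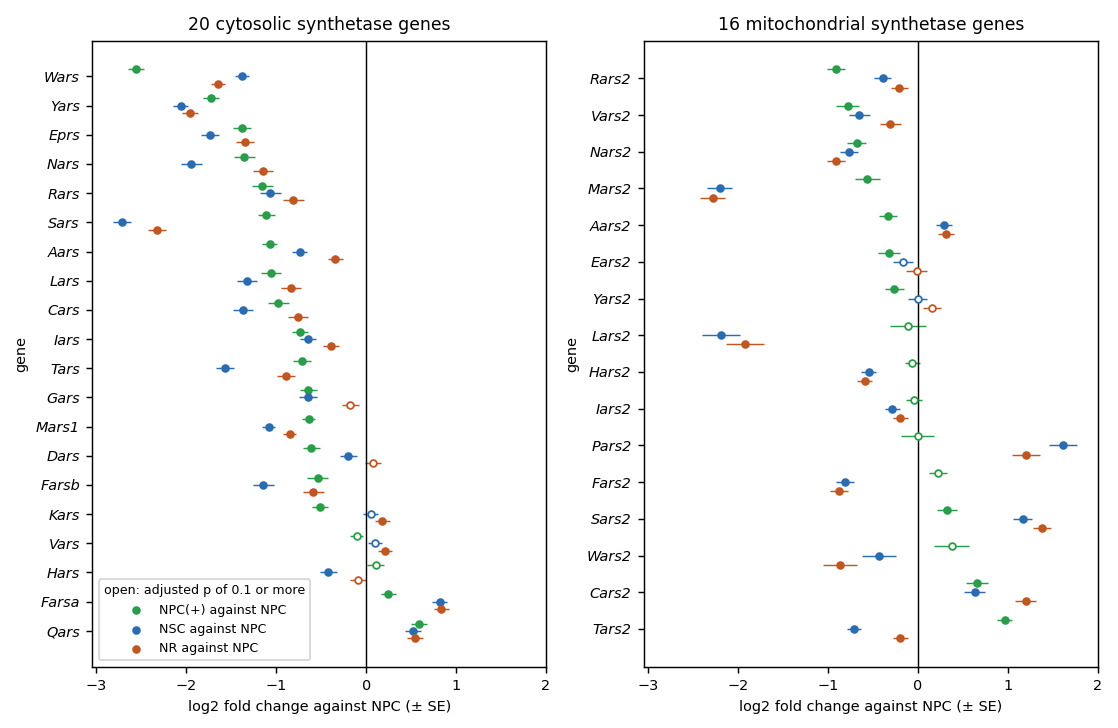
Log2 fold change of each of 20 cytosolic (left) and 16 mitochondrial (right) synthetase genes in NPC(+), NSC and NR against the same NPC libraries, with bars for the SE and open circles for genes with an adjusted p of 0.1 or more. In NPC(+) 17 of 20 cytosolic points lie left of 0, from -2.56 for *Wars*, and the mitochondrial points spread from -2.28 for *Mars2* in NR to 1.62 for *Pars2* in NSC.

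NR and NSC were also compared directly. The cytosolic genes were higher in NR in 14 of 20 cases and lower in 1 (*Wars*), beside 30% of all genes called higher and 26.6% called lower, and their median log2 fold change was 0.30 beside 0.014 over all genes, of which 56.6% were called in either direction. The libraries lay apart for 13 higher and 1 lower genes, beside 30% and 26.6% of all genes. *Nars*, *Tars* and *Cars* differed most, at 0.80, 0.68 and 0.61 on the log2 scale. Without NR replicate 1 the number called higher was 11, with *Dars*, *Iars* and *Rars* lost. Among the mitochondrial genes *Cars2*, *Tars2*, *Vars2* and *Sars2* were called higher and *Pars2* and *Wars2* lower, with a median of 0.12. The call of *Sars2* was kept in 6 of 14 alternative fits and was lost when NR replicate 1, or any other of the NR and NSC libraries but NSC replicate 2, was left out. That of *Wars2* was kept in 9, and lost without NSC replicate 2 or NR replicate 2.

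Across the 4 groups the mean level was highest in NPC for 14 of 20 cytosolic and 8 of 16 mitochondrial genes. The group with the lowest mean was NSC for 11 and NPC(+) for 7 of the cytosolic genes, and among the mitochondrial genes it was NPC(+) for 6, NR for 5, NSC for 3 and NPC for 2. In the 3 comparisons with NPC 13 cytosolic genes were called lower each time and *Farsa* and *Qars* higher each time. Of the mitochondrial genes 4 were called lower each time (*Mars2*, *Nars2*, *Rars2* and *Vars2*) and 2 higher each time (*Cars2* and *Sars2*). The share of all genes called the same way each time was not counted, nor that of genes highest or lowest in each group. The 3 comparisons also share the NPC libraries, so no difference between the compartments is read from these counts. A further 5 mitochondrial genes (*Fars2*, *Hars2*, *Iars2*, *Lars2* and *Wars2*) were called lower in NSC and NR and were not called in NPC(+). The call of *Wars2* in NSC was kept in 8 of 14 alternative fits and lost without NPC replicate 2 or 3 or NSC replicate 1 or 3, and *Fars2* was called higher in NPC(+) in 6 of 14, DESeq2 among them.

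For 3 members a call in NPC(+) was opposite to a call in NSC or NR, not counting members with opposite values that were not called on one side (among them *Fars2*, *Wars2*, *Hars* and *Vars*). *Tars2* was higher in NPC(+) and lower in NSC (log2 fold change -0.71, SE 0.079, edgeR adjusted p 2.21e-06). *Aars2* (ENSMUSG00000023938, chr17:45506841-45520843, + strand), for alanine, had 50.6, 49.2 and 48.8 CPM in NPC, 44.0, 39.4 and 35.5 in NPC(+), 57.5, 62.1 and 63.1 for NSC and 64.4, 61.7 and 58.9 for NR, with NPC(+) below and NSC and NR above NPC without overlap, at log2 fold changes of -0.33 in NPC(+), 0.29 for NSC and 0.31 for NR. *Kars* (ENSMUSG00000031948, chr8:111993443-112011323, - strand) had 295, 309 and 306 CPM in NPC, 205, 214 and 217 in NPC(+), 297, 350.2 and 296 for NSC and 374, 336 and 320.4 for NR. It was lower in NPC(+) (log2 fold change -0.52, SE 0.086, edgeR adjusted p 3.30e-04) and slightly higher in NR (log2 fold change 0.18, SE 0.085, edgeR adjusted p 0.0692), the latter call being lost when NR replicate 1 or any of the NPC libraries was left out.

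**Figure D4:**
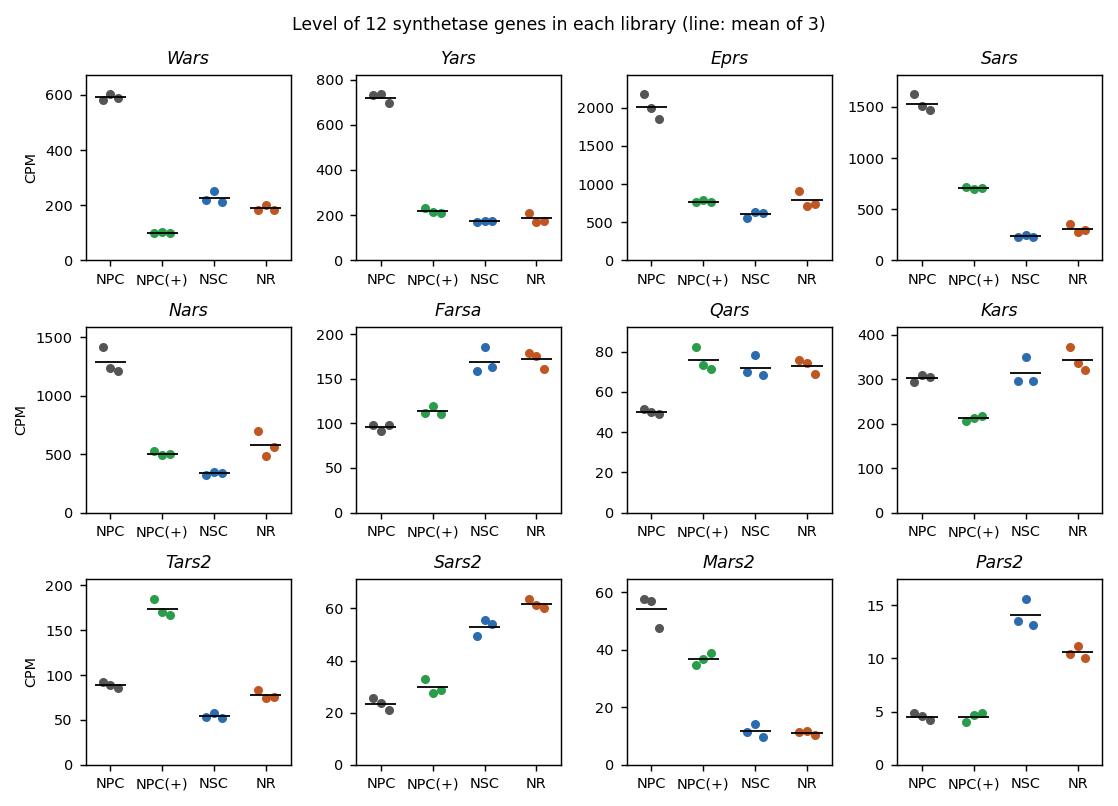
CPM of 12 synthetase genes in each library, with points for libraries, a line for the mean of 3 and every axis starting at 0. *Wars*, *Yars*, *Eprs*, *Sars* and *Nars* are highest in NPC, *Farsa* and *Qars* are lowest in NPC, and *Tars2* reaches 166 to 185 CPM in NPC(+) alone.

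Cytosolic and mitochondrial genes for the same amino acid were set side by side in 17 pairs, in which *Eprs* stands with *Ears2* and with *Pars2*. The cytosolic gene had the lower log2 fold change in 14 pairs in NPC(+), 12 for NSC and 11 for NR. Both genes of a pair were called the same way in 6, 9 and 8 pairs. The cytosolic gene was called lower and the mitochondrial gene higher in 3, 4 and 4 pairs, and the opposite held in 0, 1 and 2 pairs. Of all genes 22.7%, 33.7% and 34.1% were called lower and 21.6%, 44.4% and 45.6% higher in the same order. With shares this large, opposite calls are also to be expected between unrelated genes. Pairs of other genes were not counted, so nothing about the pairing is read from these counts.

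Serine and cysteine were the amino acids for which this opposition was seen in all 3 comparisons. For *Cars2* in NSC the surrounding genes were higher as well, as given above. For serine the log2 fold changes of *Sars* were -1.11 in NPC(+), -2.71 for NSC and -2.32 for NR, and those of *Sars2* were 0.32 in NPC(+), 1.16 for NSC and 1.38 for NR. *Cars* (ENSMUSG00000010755, chr7:143557230-143600090, - strand) had 408, 369 and 373 CPM in NPC, 196, 192 and 197 in NPC(+), 146, 151 and 149 for NSC and 280.2, 191 and 209.8 for NR, lower than NPC in all 9 libraries at log2 fold changes of -0.98 in NPC(+), -1.37 for NSC and -0.76 for NR, while *Cars2* was higher throughout. *Tars* (ENSMUSG00000022241, chr15:11382301-11399665, - strand), the threonine enzyme of the cytosol, had 843, 736 and 729 CPM in NPC, 466, 484 and 455 in NPC(+), 249.6, 271 and 258 for NSC and 480.0, 366 and 399 for NR and was lower in each group, opposite to *Tars2* in NPC(+) only.

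*Aars* (ENSMUSG00000031960, chr8:111033144-111057664, + strand) had 1217, 1176 and 1100.5 CPM in NPC, 557, 564 and 539 in NPC(+), 679, 713 and 699.9 for NSC and 1033, 862 and 859 for NR, so that NPC was highest and NR came next, and it was lower in NSC and NR where *Aars2* was higher. *Eprs* and *Pars2* also formed such a pair in NSC and NR, and between NR and NSC they were called in the reverse sense. The reverse was seen for phenylalanine, where *Farsa* was higher in NSC and NR and *Fars2* (ENSMUSG00000021420, chr13:36117412-36726280, + strand) lower, with 31.3, 29.6 and 27.5 CPM in NPC, 34.7, 33.0 and 35.9 in NPC(+), 16.8, 17.1 and 16.7 for NSC and 16.4, 15.6 and 16.4 for NR. The genes around *Farsa* were also higher in NSC and NR, as given above. *Vars* (ENSMUSG00000007029, chr17:35000987-35016322, + strand) had 545, 559 and 579 CPM in NPC, 533, 526 and 504 in NPC(+), 571, 636 and 592 for NSC and 693, 637 and 614 for NR. *Vars2* (ENSMUSG00000038838, chr17:35655634-35667592, - strand) had 40.2, 47.2 and 39.7 CPM in NPC, 22.6, 28.1 and 22.9 in NPC(+), 26.5, 28.3 and 26.0 for NSC and 37.9, 32.0 and 33.1 for NR, with all other libraries below NPC. They gave a reverse pair in NR, where the rise of *Vars* was small (log2 fold change 0.21, SE 0.075, edgeR adjusted p 0.0216) and was not called without NR replicate 1 or NPC replicate 2.

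**Figure D5:**
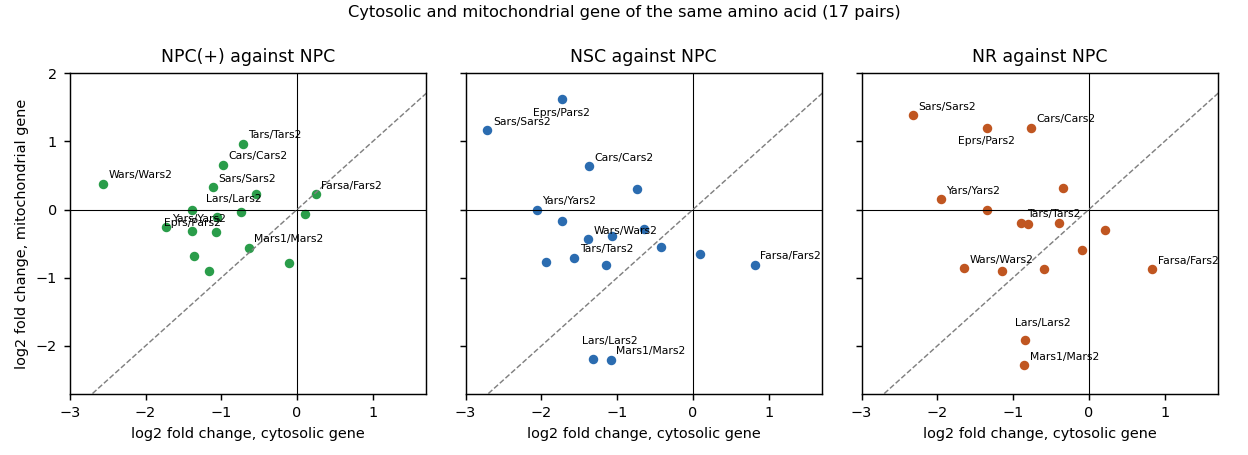
Log2 fold change of the cytosolic gene (horizontal) and the mitochondrial gene (vertical) of 17 amino acid pairs in NPC(+), NSC and NR against NPC, with a dashed line of equal change and names for chosen pairs. *Sars* and *Sars2* lie at the upper left of every panel, *Farsa* and *Fars2* at the lower right for NSC and NR, and most other pairs left of 0.

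The genes that serve both compartments were lower in NPC(+). *Gars* (ENSMUSG00000029777, chr6:55038007-55079500, + strand) had 579, 567 and 543 CPM in NPC, 367, 359 and 355 in NPC(+), 340.3, 378 and 361 for NSC and 583, 443 and 471 for NR. NPC(+) and NSC lay below NPC without overlap (log2 fold change -0.64, SE 0.10, edgeR adjusted p 1.25e-04 for NPC(+) and log2 fold change -0.65, SE 0.095, edgeR adjusted p 2.98e-05 for NSC). *Kars* was lower in NPC(+) only, as described.

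The multisynthetase complex binds 8 of the cytosolic members (*Dars*, *Eprs*, *Iars*, *Kars*, *Lars*, *Mars1*, *Qars* and *Rars*) to 3 scaffold proteins. Of the 8 enzymes 7, 6 and 5 were called lower in NPC(+), NSC and NR, beside 22.7%, 33.7% and 34.1% of all genes. *Qars* was called higher each time and *Kars* in NR. The scaffold gene *Aimp1* had log2 fold changes of -0.95 in NPC(+), -1.0 for NSC and -0.60 for NR, all called. *Aimp2* had -0.28 in NPC(+), -0.69 for NSC and -0.32 for NR and *Eef1e1* 0.10 in NPC(+), -1.45 for NSC and -0.84 for NR, and for these the values in NPC(+) were not called. By catalytic class 13 of 19 class I and 10 of 17 class II genes were called lower in NPC(+), 14 and 12 for NSC and 14 and 9 for NR, beside the same shares of all genes. Called higher were 2 and 3 in NPC(+), 2 and 4 for NSC and 3 and 5 for NR, beside 21.6%, 44.4% and 45.6% of all genes.

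The ATF4 pathway itself was followed through a list of 30 genes of the stress response and amino acid supply, the response whose movement led to this family. In NPC(+) 30 of 30 were called lower, beside 22.7% of all genes, with a median log2 fold change of -1.94. Since changes of this kind led to the choice of the family, nothing is read from these counts. In NSC 28 and in NR 27 were called lower and 1 higher in each (*Slc7a3*, a carrier of cationic amino acids), with medians of -2.98 and -2.47, beside 33.7% and 34.1% of all genes called lower. *Atf4* had 971, 808 and 824 CPM in NPC, 529, 491 and 469 in NPC(+), 217, 235 and 219.8 for NSC and 250.1, 231 and 210.2 for NR. It was highest in NPC and intermediate in NPC(+) in all libraries, with log2 fold changes of -0.81 in NPC(+), -1.95 for NSC and -1.91 for NR, although ATF4 is controlled mainly at translation, which these data do not measure. *Atf4* lies on chromosome 15, whose median over all expressed genes was -0.72 for NSC and -0.78 for NR, and the part of this was not tested.

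*Trib3*, *Chac1* and *Ddit3* had larger changes than *Atf4* in each comparison with NPC. *Trib3*, a pseudokinase induced by ATF4, changed by -4.96 in NPC(+), -6.19 for NSC and -3.95 for NR on the log2 scale, *Chac1*, which degrades glutathione, by -3.76 in NPC(+), -4.85 for NSC and -3.91 for NR, and *Ddit3*, the stress factor CHOP, by -2.72 in NPC(+), -4.05 for NSC and -4.26 for NR. *Asns*, which makes asparagine, changed by -1.56 in NPC(+), -2.72 for NSC and -0.96 for NR. *Asns* and *Trib3* were higher in NR than in NSC (1.76 and 2.23), as were 10 of the 12 ATF4-responsive synthetase genes, whereas *Atf4* and *Ddit3* were not called there. Over the whole list 16 of 30 genes were higher and 3 lower in NR than in NSC. Of all genes 30% were called higher and 26.6% lower there. Without NR replicate 1 *Iars*, which is among the 12, was no longer called, and the count of the 30 was not recomputed.

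*Lars2* (ENSMUSG00000035202, chr9:123366927-123462666, + strand), named for the mitochondrial leucine enzyme, was treated apart. It had 18065, 14398 and 13776 CPM in NPC, 12706, 15788 and 14484 in NPC(+), 4573, 2738 and 2841 for NSC and 3368, 3724 and 5128 for NR, which ranked it between 1 and 4 among the most counted genes of every library and gave it 1.29 to 1.65% of the counts in NPC and NPC(+) and 0.273 to 0.528% in NSC and NR. It was not called in NPC(+) and fell in NSC (log2 fold change -2.19, SE 0.21, edgeR adjusted p 4.86e-07) and NR (log2 fold change -1.92, SE 0.21, edgeR adjusted p 1.49e-06). A stretch of 72 aligned bases, 71 of them identical, is shared by transcripts of *Lars2* and of *Gm15564*, a noncoding RNA gene on chromosome 16, and the level of *Gm15564* changed by -2.13 for NSC and -1.74 for NR and by 0.0045 in NPC(+). How the counting assigned reads from such shared sequence is not stated, so the level of *Lars2* is uncertain and its part was not tested. Without it 7, 9 and 9 of 15 mitochondrial genes were called lower in NPC(+), NSC and NR, and 3, 4 and 4 higher.

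Some members share exonic bases with other genes, and the strand setting of the counting is not stated in the sources used here. The overlap was largest for *Iars2* with *Rab3gap2* (22.9% of its exonic bases, opposite strand), *Aars* with *Exosc6* (14.3%, same strand), *Farsb* with *Sgpp2* (9.47%), *Fars2* with *Nrn1* (8.72%), *Vars2* with *Gm20483* (8.52%) and *Hars* with *Hars2* (7.97%). For *Wars*, *Eprs*, *Sars*, *Tars2*, *Sars2*, *Mars2* and *Pars2* it was 0. *Mars1* shares 1.99% with *Ddit3*, the stress gene above.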

How the data were processed

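RNA of 12 libraries from 4 groups was extracted (PicoPure) and its cDNA amplified (SMART-Seq v4). The authors deposited raw read counts per Ensembl gene, without normalization. STAR 2.6, RSEM 1.1.14 and mm10 are named in the submitters' processing notes without their roles. The strand setting and the assignment of reads shared between genes are not given in the sources used here. Symbols, coordinates and exon lengths came from GENCODE for GRCm38, promoters from RefSeq (GRCm38.p6). Protein sequences were not used here, and 1 gene and 1 sequence are not reported here.

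Counts were scaled by TMM in edgeR 4.0.16 (limma 3.58.1, R 4.3.3) and filterByExpr, given the groups, kept 17003 genes. The glmQLFit and glmQLFTest functions were run in 1 model over the 12 libraries without a block, with Benjamini-Hochberg adjustment over all genes tested and a call at an adjusted p under 0.1. The SE is the size of the log2 fold change over the root of the F statistic. CPM used TMM-scaled totals, CPM per kilobase the union of exons, and percentages of counts the unscaled totals. NPC(+) had the smallest libraries. In simulated data for NPC(+) against NPC, 16213 genes passed the filter. Rises and falls of 0.5 and of 1 in log2 were given to 50 genes each. Of these, 36% of rises and 32% of falls of 0.5 and 88% and 80% of those of 1 were called, with 15 false calls.

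Members and lists were chosen with earlier results of these data known. Values in every library are given for the 3 cytosolic and 3 mitochondrial members with the smallest p in each comparison with NPC, for members and amino acid pairs called in opposite directions, and for *Gars* and *Kars*. *Qars* and the genes around each member were added after their values were seen. Libraries of 1 group differed by more than sampling noise. Same-numbered libraries correlated in their deviations from the group means only between NR and NSC (0.229, 0.49 and 0.296, against -0.047 to 0.048 in the other comparisons), so the numbers were taken to pair those libraries. The pairing comes from the replicate numbers of the titles. Alternatives were DESeq2 1.42.0, RLE and upper-quartile scaling, no filter or at least 10 counts in every library, a replicate block, fits of only the groups compared, thinning to 3407066 counts, an adjusted p under 0.05, a fold change over 4 and the omission of each replicate. The omission of *Lars2* was chosen after seeing the data.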

Additional observations from a re-analysis of the deposited data

How the results depend on the processing

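No called log2 fold change of a member changed sign in any alternative that was run. Values near 0 that were not called did: *Hars2*, *Iars2*, *Lars2* and *Pars2* in NPC(+), *Kars* and *Yars2* in NSC, *Dars*, *Ears2* and *Hars* in NR, and *Aars2*, *Farsa*, *Hars2*, *Mars2* and *Qars* between NR and NSC. With a fold change over 4 required, a stricter rule by construction, the cytosolic members called higher and lower were 0 and 1 in NPC(+), 0 and 2 for NSC and 0 and 1 for NR against NPC and 0 and 0 in NR against NSC, and the mitochondrial members 0 and 0, 0 and 2, 0 and 1 and 0 and 0. In NPC(+) the cytosolic members called higher numbered 1 without a filter and 1 to 2 with a replicate left out, *Farsa* being lost without NPC replicate 2 or NPC(+) replicate 2. The mitochondrial members called higher there numbered 5 under upper-quartile scaling, with at least 10 counts in every library and with only the groups compared. In NR the cytosolic members called higher numbered 2 with only the groups compared and 2 to 4 with a replicate left out, the lowest without NR replicate 1 or NPC replicate 2, and the mitochondrial members called lower numbered 6 without a filter and with at least 10 counts. Between NR and NSC the mitochondrial members called lower numbered 1 under upper-quartile scaling, without a filter and at an adjusted p under 0.05, 0 after thinning and 1 to 2 with a replicate left out (NSC replicate 2 or NR replicate 2), and those called higher 2 without a filter. The causes were not tested. The other counts of cytosolic and mitochondrial members called stayed within 1.5 times the value reported, and counts of the smaller lists and of pairs were not recomputed. The replicate block, by which NR and NSC are paired, changed no call of a member, with 14 cytosolic members again higher in NR than in NSC and 16 lower in NPC(+) than in NPC. Other scalings moved the median of all genes by less than 0.1. Changes of 0.5 in log2 were often missed in the simulated data, where only 50 genes of each size were changed. With so few changes the adjusted p is stricter than in the real data, where 44.3% of all genes were called in NPC(+). The simulation therefore does not give the share of members missed.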

Other observations

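Genes around the synthetases in the path from transfer RNA to protein were called in both directions in NPC(+). Of all genes 21.6% were called higher and 22.7% lower in NPC(+), 44.4% and 33.7% in NSC, 45.6% and 34.1% in NR, and 30% higher in NR than in NSC, and the shares of the tRNA handling genes in NSC and NR were near these. Of 18 other genes of tRNA charging and handling, such as the amidotransferase subunits that finish mitochondrial glutamine charging, 6 were called higher and 8 lower in NPC(+), 7 and 7 for NSC and 8 and 5 for NR, with median log2 fold changes of 0.089, -0.021 and -0.042. Of 7 cytosolic elongation genes 1 was higher and 2 lower in NPC(+), while 6 were lower in NSC and 5 lower and 2 higher in NR. All 7 were higher in NR than in NSC. Of 13 mitochondrial translation factors 2 were higher and 2 lower in NPC(+), 1 and 7 for NSC and 4 and 6 for NR, and 9 were higher in NR than in NSC.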
